A study of Mus musculus with 3 samples.

Results

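The actin cytoskeleton genes examined here are 40 named genes that supply, nucleate, cap, cross-link, anchor or regulate actin filaments, out of 55536 annotated genes. They form a list of gene names, and each symbol was found as 1 gene in the tables. Nuclei of bone marrow-derived macrophages, phagocytes cultured from the marrow of C57BL/6J mice, gave the RNA, which was depleted of ribosomal RNA before sequencing. All 3 libraries, biological replicates 1 to 3, came from cells exposed for 15 min to Lipid A at 100 ng/ml. Lipid A is the lipid anchor of lipopolysaccharide and activates Tlr4. There was no untreated group, so nothing here is a response to Lipid A. The input was 500 ng for replicate 2 and 1 µg for replicates 1 and 3. The labels record separate biosamples but a single donor entry, so the spread between libraries may be technical, and sex and age were not recorded.

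Actin filaments grow from monomers that thymosins and profilin hold ready, start as branches at the Arp2/3 complex or as straight filaments at formins, and are ended by capping proteins and taken apart by cofilin and gelsolin. Small GTPases switch these steps on and off. In macrophages this machinery drives ruffling, migration and the uptake of particles.

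Depth came to 18516063, 17345644 and 20947006 expected counts for replicates 1 to 3, summed over annotated genes. Macrophage markers had a median of 213 ± 18.6 TPM (a relative level corrected for transcript length; SD, n = 3), led by the lysozyme gene Lyz2. Marker lists of 7 other cell types had medians from 0.02 to 0.615 TPM. Among the 4 megakaryocyte or platelet markers, Pf4 alone was high, at 220.2, 60.8 and 49.8 TPM in replicates 1 to 3, while Itga2b, Gp9 and Gp1bb averaged 0.920, 0.310 and 0.0733 TPM. Mitochondrial genes held 6.74 to 8.37% of counts, so the fraction was not free of RNA from outside the nucleus, and how much of the actin gene RNA came from there was not measured. In bulk RNA, fewer cells of a type and less RNA per cell cannot be told apart.

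Actin cytoskeleton genes were abundant in this RNA. The median member was at 58.3, 56.9 and 44.3 TPM in replicates 1 to 3, against 7.29, 7.34 and 5.46 TPM for the 11960 protein-coding genes with a mean of at least 10 counts. The difference of medians was 7.84-fold, or log2 2.97 ± 0.03 (SD, n = 3), with p = 0.25 in an exact two-sided sign-flip permutation test, the smallest value that 3 libraries allow. Against all protein-coding genes, with no minimum count, it was log2 6.41. All 40 members passed the minimum of 10 counts, with 94 counts in the lowest case and 43644 in the highest. A mean of 10 TPM was reached by 38 members, against 38.4% of protein-coding genes, and 50 TPM by 24 members, against 6.10%. A mean of 100 TPM was reached by 10 members, against 2.34% of protein-coding genes. By mean TPM, 3 members, Actb, Tmsb4x and Actg1, were among the 100 highest protein-coding genes. Together the members held 1.05, 0.778 and 0.768% of all counts in replicates 1 to 3, and Actb alone made up 18.5 ± 3.4% of the members' counts (SD, n = 3).

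**Figure D1:**
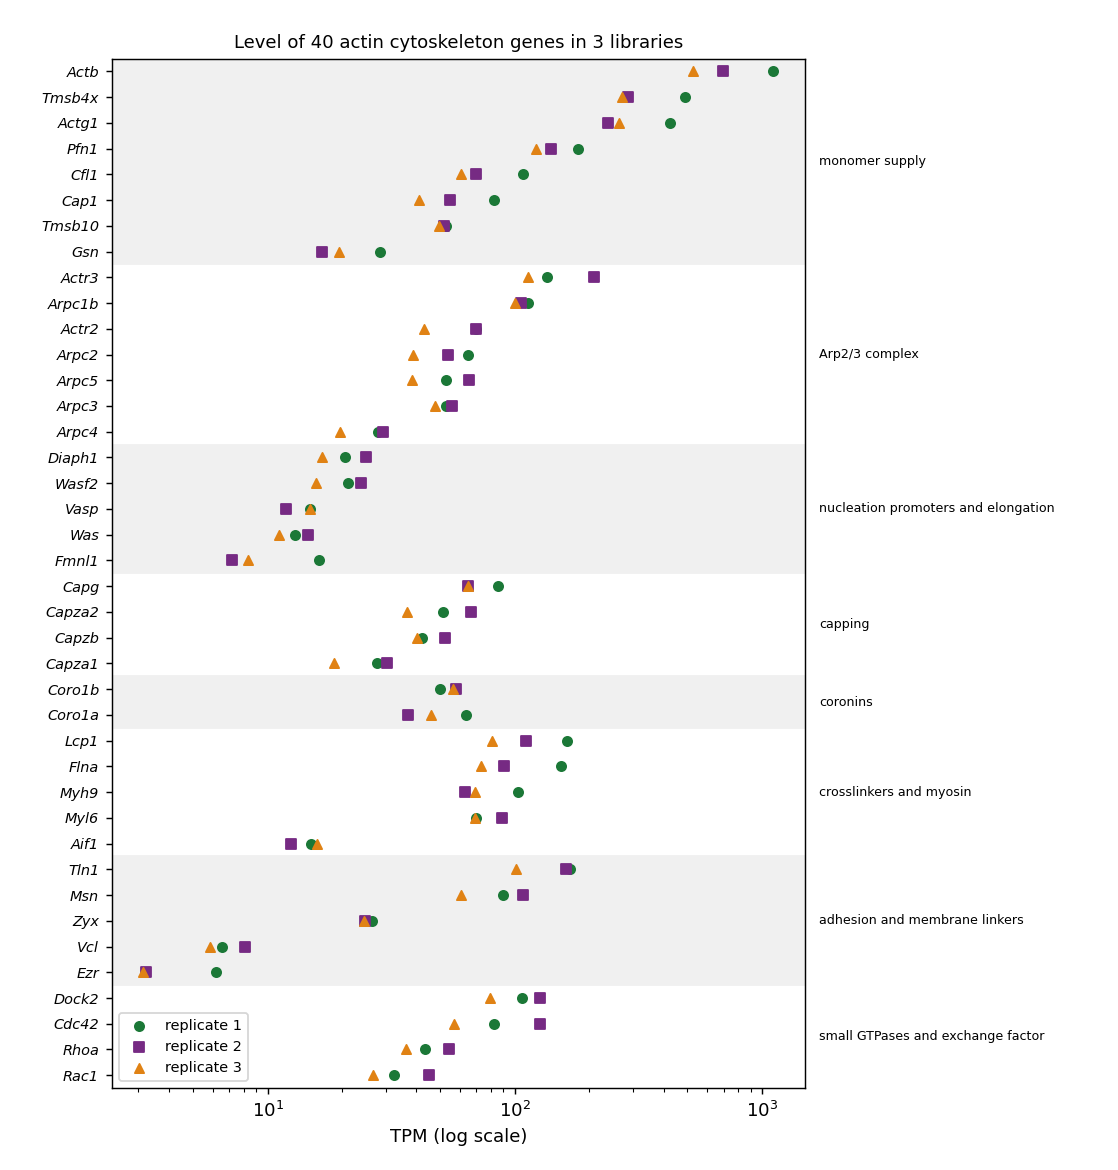
TPM (log scale) of the 40 genes in each of 3 libraries, grouped by role and ordered by mean within a role; each symbol is 1 library. Actb reached 1114 TPM in replicate 1 and Ezr lay between 3.14 and 6.21 TPM.

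The 8 genes of monomer supply and turnover were the highest group, with a median of 113 ± 27.6 TPM (SD, n = 3 libraries). Actb (ENSMUSG00000029580.14, chr5:142903115-142906754, minus strand, GRCm38), which encodes β-actin, was at 1114, 699.4 and 525.8 TPM in replicates 1 to 3. Tmsb4x, encoding thymosin β4, which sequesters monomers, was at 487.3, 286.5 and 271 TPM. Actg1, encoding γ-actin, was at 424.4, 238.5 and 265.1 TPM. By TPM, replicate 1 was the highest library for all 3 genes, and replicates 2 and 3 lay close together for Tmsb4x and Actg1. Pfn1, the profilin that delivers monomers to growing ends, was at 180.3, 140.2 and 121.5 TPM, and Cfl1, the cofilin that severs filaments, at 108.1, 69.7 and 60.3 TPM. Both were again highest in replicate 1. Cap1, which recycles monomers with cofilin, averaged 59.4 TPM, and Tmsb10, another thymosin, was at 52.6, 51.9 and 49.5 TPM. The lowest of the group was Gsn, the gelsolin gene, whose product severs filaments and caps them, at 28.6, 16.6 and 19.5 TPM.

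The 7 genes of the Arp2/3 complex, which starts branches, had a median of 57.6 ± 12.7 TPM (SD, n = 3 libraries). Actr3 and Actr2 encode the actin-related proteins that form the first subunits of the new filament. Actr3 was at 135.1, 208.7 and 113.5 TPM in replicates 1 to 3, the highest of the complex, and Actr2 at 69.5, 69.9 and 42.9 TPM. Replicate 2 was the highest library for Actr3, unlike the genes of monomer supply. Arpc1b, the ARPC1 subunit of blood cells, was at 113.2, 106.2 and 100.6 TPM. The subunits Arpc2, Arpc5 and Arpc3 lay together at 52.3 ± 13.0, 52.2 ± 13.5 and 52.0 ± 4.2 TPM (SD, n = 3), closer than their spread. Arpc4, with Arpc2 part of the core of the complex, was the lowest at 27.9, 29.4 and 19.5 TPM.

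Genes that switch on nucleation or extend filaments were far lower, with a median over 5 genes of 15.2 ± 0.858 TPM (SD, n = 3 libraries). Diaph1, a formin that extends straight filaments, was at 20.6, 24.9 and 16.6 TPM in replicates 1 to 3. Wasf2, the WAVE protein that turns on Arp2/3 below Rac, was at 21.1, 23.8 and 15.7 TPM. These genes overlapped in level. The elongation factor Vasp averaged 13.9 ± 1.69 TPM (SD, n = 3), and Was, the Wiskott-Aldrich syndrome protein that acts below Cdc42, was at 12.9, 14.5 and 11.1 TPM. The leukocyte formin Fmnl1 was the lowest, at 16.1, 7.15 and 8.32 TPM, with replicate 1 above the other libraries. Among the 4 capping genes, Capg, a gelsolin relative that caps without severing, was the highest. It was at 85.8, 64.9 and 64.6 TPM in replicates 1 to 3, a mean of 71.8 ± 12.2 TPM. Of the capping protein subunits, Capza2 was at 51.1, 66.3 and 36.7 TPM and Capza1 at 27.7, 30.3 and 18.5 TPM, both highest in replicate 2. Capzb, their partner, averaged 44.9 ± 6.44 TPM. The coronins, which bind filaments and act on Arp2/3 and cofilin, lay close together: Coro1b was at 50.01, 57.9 and 56.2 TPM and Coro1a, the leukocyte form, at 63.6, 37.0 and 45.7 TPM.

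Of the 5 genes for cross-linkers and myosin, 4 were abundant. Lcp1, the plastin of leukocytes that bundles filaments, was at 162.4, 110.9 and 80.9 TPM in replicates 1 to 3, and Flna, the filamin that joins filaments at angles, at 153.2, 90.7 and 73.2 TPM. Myh9, the heavy chain of non-muscle myosin IIA, averaged 78.3 ± 21.6 TPM and Myl6, a light chain, 75.8 ± 11.5 TPM (SD, n = 3). Aif1, a calcium-binding bundling protein of macrophages also called Iba1, was at 14.9, 12.5 and 15.9 TPM. It rested on 153, 94 and 223 counts, the fewest of the members together with Ezr at 462, 197 and 269. Of the 5 genes that link filaments to the membrane, Tln1, the talin that activates integrins, was at 167.7, 161.5 and 101.2 TPM, and its partner Vcl, vinculin, at 6.51, 8.08 and 5.84 TPM. Msn, encoding moesin, was at 89.9, 108.0 and 60.4 TPM, and its relative Ezr, encoding ezrin, at 6.21, 3.21 and 3.14 TPM. Zyx, a LIM protein of adhesion sites, was at 26.5, 24.7 and 24.5 TPM. Vcl and Ezr were the only members under a mean of 10 TPM.

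The regulators were 3 small GTPases and an exchange factor. Dock2, the factor that loads Rac with GTP in leukocytes, was at 106.7, 126.3 and 79.3 TPM in replicates 1 to 3. Cdc42, which directs polarity and filopodia, was at 82.5, 127.0 and 56.9 TPM. Rhoa, which drives contraction, was at 43.3, 54.0 and 36.4 TPM, and Rac1, which drives ruffling, at 32.4, 44.9 and 26.6 TPM. Replicate 2 was the highest library in TPM for all 4 genes.

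Related members were compared by their ratio within each library, which cancels library scaling, for 13 pairs. In 12 pairs the sign was the same in all 3 libraries; each of these gave an exact permutation p of 0.25 by sign flips, the least possible, and 0.271 after Benjamini-Hochberg adjustment over the pairs. The widest gaps were those of the membrane linkers: Msn was 20.6-fold above Ezr (log2 4.36 ± 0.61) and Tln1 20.5-fold above Vcl (log2 4.35 ± 0.29; SD, n = 3). Tmsb4x was 6.53-fold above Tmsb10 (log2 2.71 ± 0.43) and Actb 2.48-fold above Actg1 (log2 1.31 ± 0.29). Among partners that act in equal numbers, Actr2 was at 0.403 of Actr3 (log2 -1.31 ± 0.32). Gene TPM, here and above, covers transcripts of every class, coding or not. By TPM, the coding transcript Actr2-201 held 74.8% of Actr2, while Actr3-202 held 47.4% of Actr3. Likewise, Tln1-201 held 39.0% of Tln1 and Vcl-201 73.95% of Vcl. Of alternative forms, Capza1 was at 0.501 of Capza2 (log2 -0.997 ± 0.12), Fmnl1 at 0.486 of Diaph1 (log2 -1.04 ± 0.72) and Was at 0.644 of Wasf2 (log2 -0.64 ± 0.12). Cfl1 was at 0.529 of Pfn1 (log2 -0.92 ± 0.16) and Rac1 at 0.403 of Cdc42 (log2 -1.31 ± 0.20), while Rhoa was 1.30-fold above Rac1 (log2 0.38 ± 0.10). In the second table Rhoa over Rac1 was log2 0.064, with an exact permutation p of 0.5, and its common sign was lost, while Was over Wasf2 was log2 -1.23. Without the correction for length, the log2 ratio was 3.43 for Tmsb4x over Tmsb10, -0.39 for Actr2 over Actr3, -1.995 for Was over Wasf2, -1.68 for Fmnl1 over Diaph1, 0.98 for Rhoa over Rac1 and -0.87 for Coro1a over Coro1b, each more than 1.5 times away from the ratio by TPM. Lcp1 and Flna were near equal, with a ratio of 1.13 (log2 0.17 ± 0.11), and this sign turned to log2 -0.46 in CPM, counts relative to library size with no correction for length. Coro1a and Coro1b had no common order: the log2 ratio was 0.35, -0.64 and -0.30 in replicates 1 to 3 (mean -0.20 ± 0.50, exact permutation p = 0.75).

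**Figure D2:**
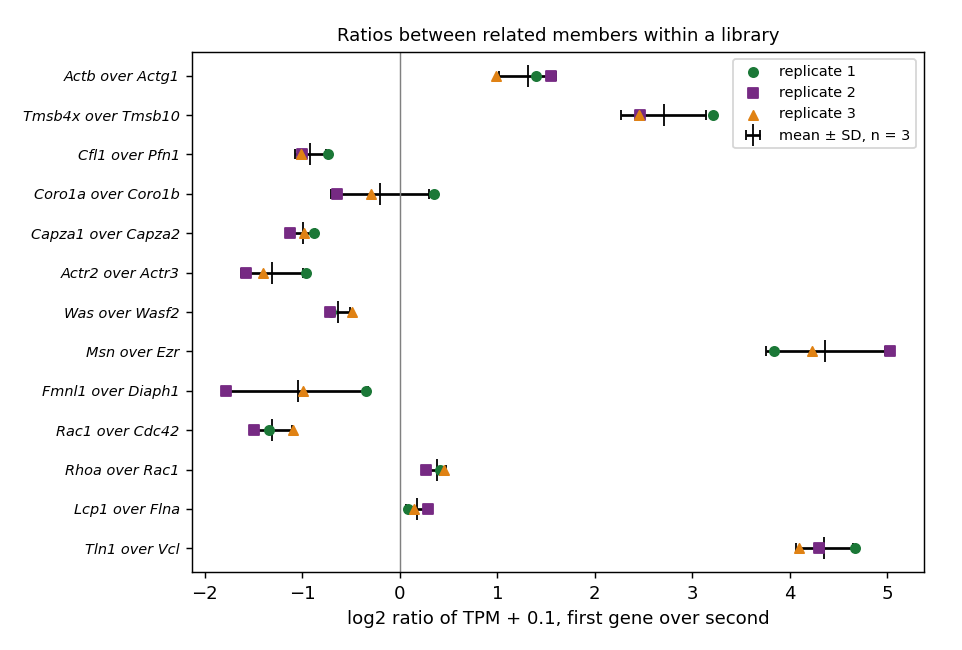
Log2 ratio of TPM + 0.1 between related members, first gene over second, for 13 pairs; symbols are libraries and black bars the mean ± SD over 3. The points of 12 pairs lie on 1 side of 0, and those of Coro1a over Coro1b on both sides.

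Libraries were compared on CPM scaled with edgeR's TMM factors, and the deviation of a library is its log2 CPM minus the mean of the other 2. No member was 2-fold above or below both other libraries in any of them. Over all 15881 genes with a mean of at least 10 counts, 4.85% were 2-fold above both others in replicate 1 and 3.22% below, 0.856% above in replicate 2 and 2.22% below, and 1.55% above in replicate 3 and 1.39% below. At 1.5-fold, Actb and Ezr were above both others in replicate 1, 5% of members beside 10.4% of all genes, and no member was below, beside 8.46%. In replicate 2 no member was above, beside 3.99% of all genes, while Coro1a, Gsn, Myh9 and Fmnl1 were below, 10% of members beside 6.26%. In replicate 3 Zyx alone was above, 2.5% of members beside 4.89%, and no member was below, beside 5.74%. These shares lay on either side of the background, and they moved with the method. In replicate 2, 8 members were 1.5-fold below in the second table, beside 5.54% of genes there. With total counts only, which shift the median gene to 1.11 times the others in replicate 1, 5 members were 1.5-fold above in that library, beside 13.9% of genes. The median SD of log2 CPM over the libraries was 0.26 for members, 0.32 for all genes and 0.24 for 8140 protein-coding genes in the members' range of expression.

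The order of the libraries differed between roles. Of the 8 genes of monomer supply, 7 were highest in replicate 1, the exception being Tmsb10, and all 8 were below the mean of the others in replicate 2. Of protein-coding genes in the members' range of expression, 33.6% were highest in replicate 1 and 50.4% below the others in replicate 2. The median monomer supply gene was at 1.44, 0.663 and 1.05 times the others in replicates 1 to 3. The first 2 directions held under edgeR's RLE factors, under total counts and in the second table. The direction in replicate 3 turned under total counts, at 0.925. By TPM, which carries no such scaling between libraries, the group's median was 144, 105 and 90.9 in replicates 1 to 3. It was thus lowest in replicate 3, as was the median protein-coding gene, at 7.29, 7.34 and 5.46 TPM. Actb was 1.67 times the others in replicate 1 with 43644, 23129 and 25740 counts, and Tmsb4x 1.54 times with 6872, 3309 and 5238. The 5 cross-linkers and myosin genes were likewise all below the others in replicate 2, with a median of 0.756. The small GTPases and Dock2 differed less between libraries: all 4 genes were above the others in replicate 2, by a median of 1.10 times, but only 1 of 4 was in the second table, at 0.980. Cdc42 was 1.51 times the others there, with 3705, 4796 and 3335 counts, and Rhoa had the smallest spread of all members, an SD of 0.016 in log2 CPM. Over all 40 members, 23 were lowest in replicate 2, as were 32.6% of protein-coding genes in the same range. There the median member was at 0.835 of the others, while those genes were at 0.997. Pf4 was highest in replicate 1 as well, with 1594, 376 and 449 counts, and its part in these values was not tested.

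**Figure D3:**
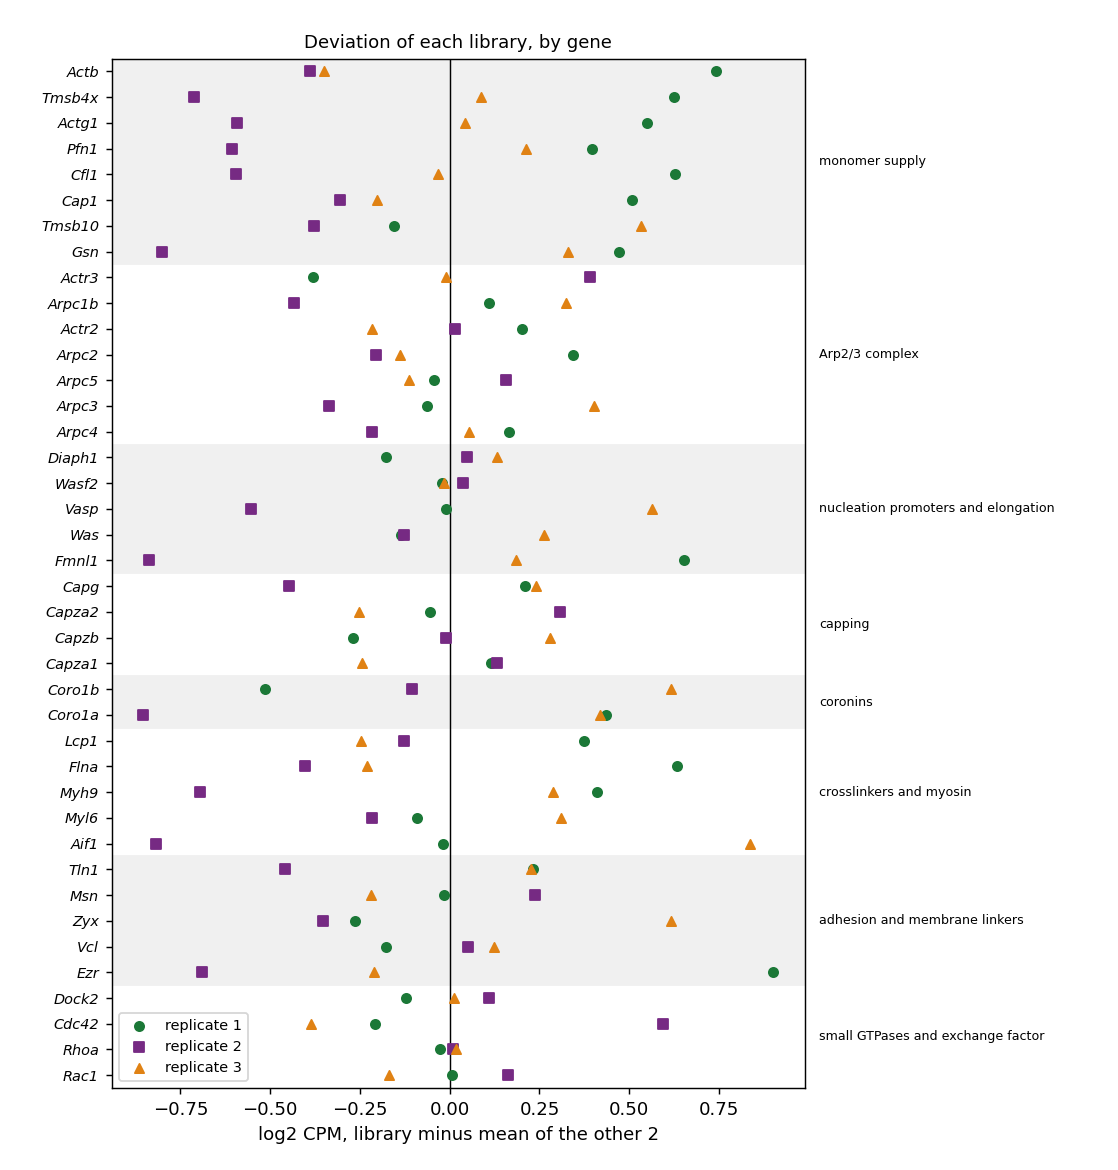
Deviation of each library, log2 CPM minus the mean of the other 2, for the 40 genes grouped by role; each symbol is 1 library. The 8 genes of monomer supply lie left of 0 in replicate 2, and 7 of them right of 0 in replicate 1.

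Base composition moved with these deviations. The GC content of a member's main coding transcript ranged from 39.3% in Capza2 to 58.6% in Coro1a. Across the 40 genes, the Spearman correlation between GC content and deviation was 0.17 in replicate 1, -0.66 in replicate 2 and 0.67 in replicate 3. It was -0.0033, -0.50 and 0.50 across 8128 protein-coding genes, so members and other genes shared the pattern; these are descriptions across genes of the same libraries. Of the 10 members of lowest GC content, among them Capza2, Actr2, Cdc42 and Actr3, 8 were above the others in replicate 2. Of the 10 of highest GC content, among them Gsn, Myh9, Fmnl1 and Coro1a, 0 were above the others in replicate 2 and 10 in replicate 3. Other genes shifted likewise: 407 protein-coding genes around 56.9% GC had a median deviation of -0.23 in replicate 2 and 0.29 in replicate 3. After the median of protein-coding genes of like GC content was subtracted, the monomer supply genes were at 1.5, 0.739 and 0.968 times the others in replicates 1 to 3, still with 0 of 8 above in replicate 2. All 40 members were then at 1.05, 0.875 and 0.998. The lower input of replicate 2 cannot be told apart from the library itself.

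**Figure D4:**
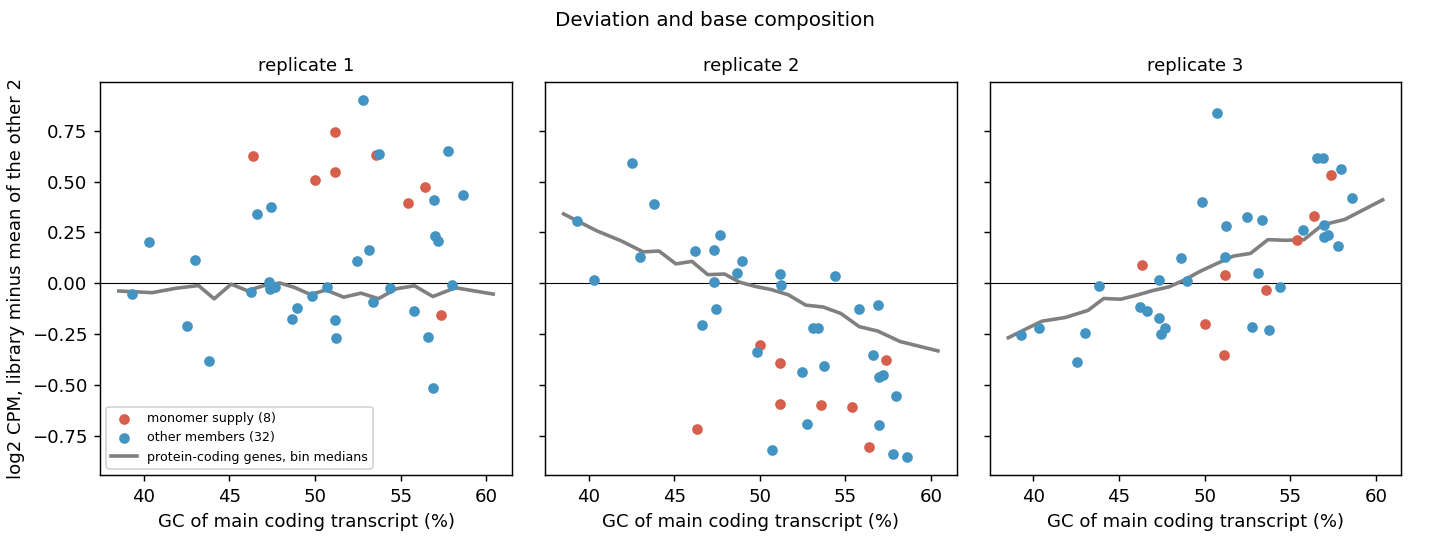
Deviation (log2 CPM, library minus the mean of the other 2) against GC content of the main coding transcript, with 1 panel per replicate; points are the 8 monomer supply genes and the 32 other members, and the line joins medians of 20 bins of protein-coding genes. The line slopes down in replicate 2 and up in replicate 3, and the monomer supply genes lie below it in replicate 2 and, for 7 of 8, above it in replicate 1.

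Transcripts of the annotation's retained-intron class were examined because the RNA was nuclear. In such data an intron kept in a finished transcript and an intron of an unfinished precursor cannot be told apart. Of the members, 29 have a transcript of this class and 11 do not. It took 15.3, 16.0 and 16.1% of the counts of those 29 genes in replicates 1 to 3, against 23.4, 23.8 and 21.2% for all 7232 genes with such a transcript. The median member was at 11.0 ± 1.38% and the median of all such genes at 18.8 ± 0.963% (SD, n = 3). A share of at least 40% was found in 6 of 29 members, or 20.7%, beside 25% of all such genes, and a share under 5% in 6 members, beside 21.6%. Members ranged from 0.387 to 58.5%. Weighted by TPM, in which short transcripts count for more, the members' value was 27.6%.

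The highest share was that of Coro1b, with 59.2, 59.6 and 56.5% of its counts in replicates 1 to 3. Pfn1 followed with 56.8, 44.7 and 56.5%, Capza2 with 48.7, 45.9 and 44.7% and Zyx with 40.8, 42.9 and 45.4%. Aif1 had 42.5 ± 7.69% and Arpc1b 42.4 ± 4.2% (SD, n = 3). In the second table, made by another method, these 6 genes had 65.2, 52.5, 46.8, 38.3, 41.9 and 39.3%. By TPM Pfn1 came to 28.9%, since its retained-intron transcript is 1997 nucleotides long and its coding transcript 861. At the other end were Gsn at 0.387 ± 0.200%, Actr2 at 0.693 ± 0.0703%, Diaph1 at 1.16 ± 0.261% and Capza1 at 1.62 ± 0.417%. By counts, paralogues differed: Capza2 was at 46.4% and Capza1 at 1.62%, and Coro1b at 58.5% and Coro1a at 28.2%. By TPM these differences were smaller. Capza2 was then at 39.8% and Capza1 at 14.8%, while Coro1b and Coro1a came close, at 57.0% and 52.0%. Actb, the most abundant member, was at 5.26, 4.06 and 7.84%.

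**Figure D5:**
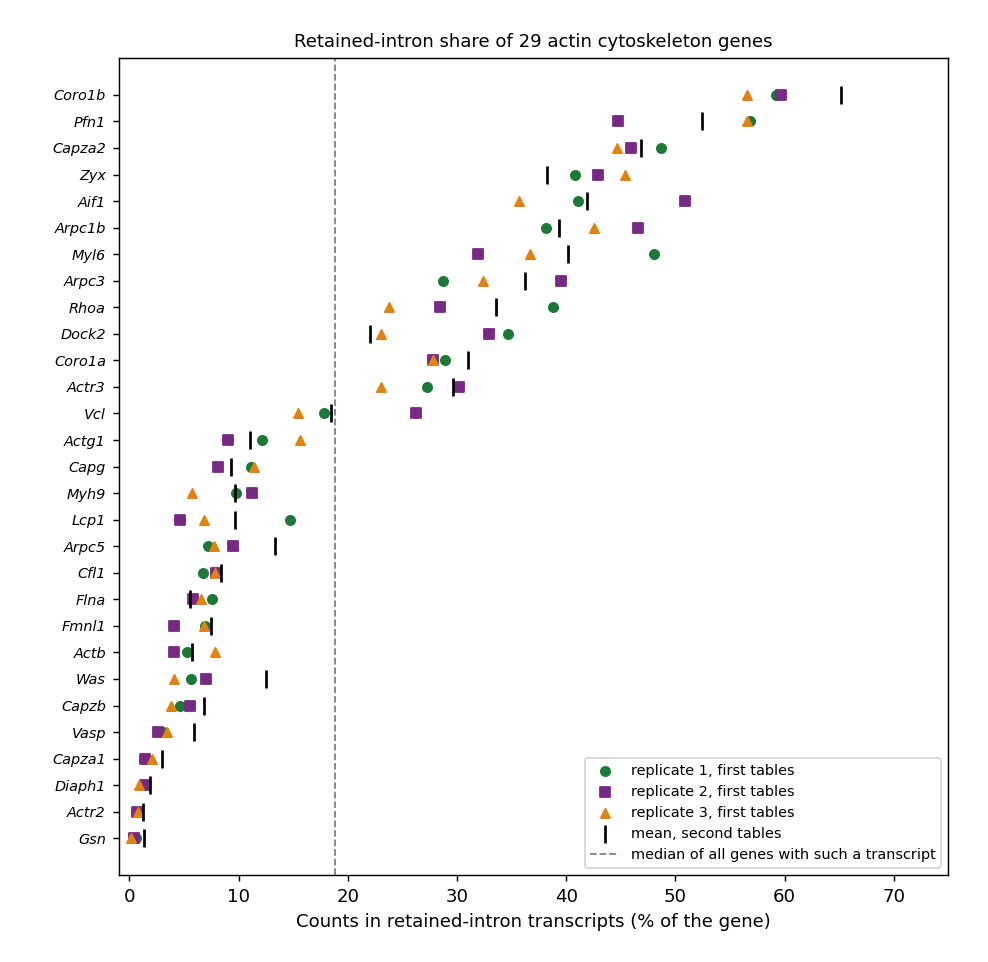
Share of a gene's counts in retained-intron transcripts (%) for the 29 members that have one; symbols are libraries in the first tables, black ticks the mean of the second tables and the dashed line the median of all such genes, 18.8%. Coro1b and Pfn1 are the highest and Gsn and Actr2 the lowest, and the second tables lie near the first for most genes.

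For 9 of the 29 members the most counted transcript of this class spans at least 1 complete intron of the main coding transcript, 17 introns in all, from 92 to 1369 nucleotides long with a median of 267. All 17 begin with GT and end with AG. Some of these introns are shown for the 5 of these genes with the highest shares. The shares count reads of whole transcripts, exons included, and reads of the introns alone were not measured. The introns were read from the GENCODE M21 transcripts on GRCm38, 5′ to 3′ on the gene's strand, with the splice site bases GT and AG in capitals. Pfn1 intron 1 (chr11:70652980-70654348, minus strand, 1369 nucleotides) is given by its first and last 60 bases, Coro1b introns 4 (chr19:4150220-4150439) and 10 (chr19:4153491-4153596, both plus strand) in full, Capza2 intron 5 (chr6:17656445-17657172, plus strand, 728 nucleotides) by its ends, and Zyx intron 7 (chr6:42356332-42356431, plus strand) and Myl6 intron 4 (chr10:128492137-128492228, minus strand) in full.
Coro1b intron 4: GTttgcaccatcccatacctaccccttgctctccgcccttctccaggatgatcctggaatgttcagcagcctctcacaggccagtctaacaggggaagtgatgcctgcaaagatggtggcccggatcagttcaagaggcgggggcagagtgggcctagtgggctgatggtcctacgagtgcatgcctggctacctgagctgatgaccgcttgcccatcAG
Coro1b intron 10: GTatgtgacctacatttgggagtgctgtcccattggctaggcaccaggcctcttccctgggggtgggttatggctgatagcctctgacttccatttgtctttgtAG
Pfn1 intron 1, first 60: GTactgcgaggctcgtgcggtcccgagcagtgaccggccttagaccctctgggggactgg
Pfn1 intron 1, last 60: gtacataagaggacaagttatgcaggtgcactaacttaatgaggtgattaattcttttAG
Capza2 intron 5, first 60: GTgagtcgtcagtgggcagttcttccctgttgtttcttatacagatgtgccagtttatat
Capza2 intron 5, last 60: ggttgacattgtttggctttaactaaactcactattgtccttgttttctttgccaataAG
Zyx intron 7: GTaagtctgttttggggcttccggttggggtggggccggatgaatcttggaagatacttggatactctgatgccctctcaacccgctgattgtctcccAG
Myl6 intron 4: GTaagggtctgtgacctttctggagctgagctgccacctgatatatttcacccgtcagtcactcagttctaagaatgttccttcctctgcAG

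The introns shown were unlike in composition, from 32.6% GC in Capza2 intron 5 to 60.4% in Pfn1 intron 1. All of those shown lie between coding exons. Coro1b-211, the retained-intron transcript with 49.8 ± 1.11% of that gene's counts (SD, n = 3), spans introns 4, 9 and 10 of the 10 introns of Coro1b-201. Myl6-209, with 43.1, 26.5 and 30.2% of counts in replicates 1 to 3, spans all 5 introns of Myl6-201. Zyx-203 spans introns 1, 7 and 8 of 10 and Capza2-207 only intron 5 of 9.

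Start regions were searched because actin genes are known targets of serum response factor, which binds the CArG box, the letters CC, then 6 of A or T, then GG, and whose partners Mrtfa and Mrtfb sense free actin monomers. RefSeq windows of 300 bases (GRCm38.p6, 250 before the start and the first bases after it) were held for 36 members, not for Actb, Coro1b, Rac1 and Diaph1. On either strand, a CArG box stood in 4 members, Actg1, Arpc4, Myl6 and Vcl, or 11.1%, and in 1.81% of 27025 genes with a window of the same length. GGGCGG stood in 28 members (77.8%, beside 38.2% of genes), CCAAT in 10 (27.8%, beside 41.1%) and GAGGAA, an ETS-type motif, in 11 (30.6%, beside 31.3%). The comparison genes were not limited to expressed or protein-coding genes, unlike the members, so these shares do not compare like with like. A CArG box may contain CCAAT or share its end with GGGCGG. Myl6 has a pair of windows, and its box lies in that of an internal start, within intron 2 of the main coding transcript. A match describes letters in a window and is not evidence of binding. The 250 bases before the start are shown for Actg1 (chr11:120348496-120348745, minus strand) and Vcl (chr14:20929148-20929397, plus strand), the highest and the lowest of the 4 by level, with the box in capitals.
Actg1: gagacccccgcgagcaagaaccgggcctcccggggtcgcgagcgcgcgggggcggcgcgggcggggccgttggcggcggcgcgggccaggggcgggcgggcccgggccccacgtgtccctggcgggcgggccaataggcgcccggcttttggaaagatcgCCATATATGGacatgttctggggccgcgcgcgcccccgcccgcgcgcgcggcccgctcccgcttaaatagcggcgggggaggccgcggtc
Vcl: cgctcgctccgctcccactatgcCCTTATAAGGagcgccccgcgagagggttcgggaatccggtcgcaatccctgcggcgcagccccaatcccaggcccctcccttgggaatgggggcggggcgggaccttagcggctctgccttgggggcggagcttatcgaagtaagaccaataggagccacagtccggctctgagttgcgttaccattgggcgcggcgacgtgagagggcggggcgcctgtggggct

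The 4 genes with a box did not all share an order of the libraries. Actg1 was at 1.46, 0.664 and 1.03 times the others in replicates 1 to 3, and Arpc4 at 1.12, 0.860 and 1.04 times. Myl6 was at 0.938, 0.860 and 1.24 times and Vcl at 0.885, 1.04 and 1.09 times. Replicate 2 was thus the lowest library for 3 of the 4, Vcl being the exception. It was also the lowest for 23 of all 40 members, beside 32.6% of protein-coding genes in the members' range of expression. Srf, the gene of serum response factor, had 387, 162 and 306 counts, or 1.62, 0.523 and 1.18 times the others. Actg1 and Arpc4 had the same order as Srf. Members without a box in their window had it too, among them Cfl1, Tmsb4x, Gsn and Myh9, while others did not. The order was thus not particular to genes with a box. How many genes share it was not counted, and a link was not tested. Mrtfa had 1172, 1595 and 2269 counts, at 0.576, 1.08 and 1.61 times, and Mrtfb 1821, 1499 and 1585 counts.

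Beyond the members, a longer list of actin genes was examined, of which 85 were found and 75 had a mean of at least 10 counts. Their median was 14.7 TPM, 50 reached 10 TPM and 2 reached 100 TPM. The genes past 100 TPM were Tpm3, a tropomyosin that coats filaments, at 179 ± 35.3 TPM, and Nckap1l, the WAVE complex subunit of blood cells, at 102 ± 26.7 TPM (SD, n = 3). The muscle actins were near the floor: Actc1 had 0 counts throughout, compatible with up to 3 per library, Acta1 had 1, 0 and 0, Actg2 0, 0 and 2, and Acta2 15, 34 and 11. Among the 75, the genes 2-fold above both other libraries in replicate 1 were Tes, Diaph3, Fmnl3 and Ssh2, 5.33% of the list beside 4.85% of all genes, and Lsp1 was below, 1.33% beside 3.22%. In replicate 2 Acta2 was above, 1.33% beside 0.856%, and Marcksl1 below, 1.33% beside 2.22%. In replicate 3 Enah was below, 1.33% beside 1.39%, and 0 genes were above, beside 1.55%. Marcksl1, a regulator of membrane-bound actin, had 3330, 557 and 2482 counts in replicates 1 to 3.

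Some members share sequence or exons with other genes. The program's own estimate of the uncertainty of read assignment was 0 for 22 members and at most 1.82% of the count, in Vcl. Actg1 resembles 13 other loci, 12 of them pseudogenes, and Actb 3, among them Actg1 at 91.1% identity over 337 nucleotides and Lrrc58 at 90.6% over 1347. Whether counting used strand is not given in the sources used here, so reads of overlapping genes on opposite strands may be mixed. The largest such overlaps were those of Rac1 with Daglb, 2309 nucleotides of exon, and of Vcl with Ap3m1, 2090 nucleotides. The counts of these neighbours came to 166% and 143% of those of the member, so the levels of Rac1 and Vcl are uncertain. Arpc4 shares 283 nucleotides on the same strand with Ttll3, whose counts were 52.2% of its own.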

How the data were processed

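Ribosomal RNA-depleted RNA from the nuclear fraction was measured in 3 libraries of 1 group. Per the file headers, the authors deposited expected counts and TPM per gene and per transcript, with the column names RSEM writes, and a second transcript table of estimated counts and TPM with the column names kallisto writes. A score deposited by the authors, the posterior standard deviation of the count, gave the uncertainty of read assignment. The deposited notes name mm10 and GENCODE M21; of the programs, no version is given in the sources used here. Rows that name no gene held 0.0642 to 1.24% of counts and were left out. Expected counts were rounded, 15881 genes averaging 10 or more were retained, and log2 CPM (prior count 2) came from edgeR 4.0.16 (R 4.3.3) and TMM factors of 1.07, 1.02 and 0.921. Ratios and level differences used log2(TPM + 0.1), where folds understate differences of low genes, and an exact two-sided sign-flip permutation test. No pair of libraries agreed within sampling noise (chi-square per degree of freedom of 82.1 to 139). A count of 0 is compatible with up to 3 counts, or 0.143 to 0.173 CPM, for counting error only. All members are described; those given in full were the highest and lowest of each role, the members of the ratio pairs and those with the highest and lowest retained-intron shares. Members, roles and gene lists were chosen with earlier results of these data known. Other scalings, tables, filters, pseudocounts and sets of libraries were tried.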

Additional observations from a re-analysis of the deposited data

How the results depend on the processing

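Of 145 alternative values of the results on levels, ratios, deviations, spread and retained introns, 132 were classed as the same, 7 as moved and 6 as turned. The 132 kept their direction, and those that moved changed in size or number but not in sign. The side of the 0.05 threshold could not change, since 3 libraries allow no exact permutation p below 0.25. Rhoa over Rac1 in the second table counts among the 132 although it lost its common sign. Some of the 132 differed in size: the level difference was log2 6.41 with no minimum count, and the median deviation in replicate 1, main value 0.058, was 0.22 without replicate 3 and 0.20 with total counts only. The log2 ratio of Coro1a to Coro1b was 0.22 in the second table and between -0.47 and 0.024 with 1 library left out, the highest without replicate 2. That of Lcp1 to Flna was -0.46 in CPM without length. The median deviation of members in replicate 3, main value 0.07, was -0.11 with total counts only, which shift the median of all genes by -0.18, between -0.051 and 0.23 with another library left out, the lowest without replicate 2, and -0.0033 after subtraction of GC bins, an alternative chosen after seeing the data. The members' share was 1.16% of the counts of protein-coding genes. Members at 100 TPM numbered 3 in the second table, whose TPM were at a median of 0.531 of the first for members and 0.566 for protein-coding genes, and 28 with TPM rescaled over protein-coding genes. Beyond 2-fold lay 1 member, Coro1a, in the second table, and the share of all genes for this count was not computed. Under the main scaling, 7 members lay beyond 1.5-fold. These were 2 above in replicate 1 (beside 10.4% of all genes), 4 below in replicate 2 (6.26%) and 1 above in replicate 3 (4.89%). With the second table, members beyond 1.5-fold were 1 above in replicate 1, 8 below in replicate 2 and 4 above in replicate 3. Of genes there, 5.54% were below in replicate 2. The shares of genes above in replicates 1 and 3 were not computed there, so those counts of members have no background. The retained-intron share was 27.6% by TPM and 19.1% without Actb. The cause of these changes was not tested. No paired analysis was possible because there is only 1 group. With 3 libraries no exact test could reach 0.05, and the fewest member counts, 94 for Aif1, limit the precision of that gene most.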

Other observations

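How counts were divided among the transcripts of a member differed between genes, libraries and methods. A single coding transcript held nearly all counts of Wasf2 (Wasf2-201, 97.7 ± 0.214%), Gsn (Gsn-205, 97.0 ± 1.96%) and Actb (Actb-201, 93.6 ± 2.51%; SD, n = 3). Summed over the libraries, the most counted transcript of Coro1b, Pfn1, Zyx and Myl6 was of the retained-intron class. In replicate 2, however, Pfn1-203 of that class held 44.7% of counts and the coding Pfn1-201 49.3%, and Myl6-209 led in replicate 1 alone. Libraries differed for Arpc3-202, with 69.2, 31.7 and 63.4% of the gene's counts in replicates 1 to 3, and for the formin transcript Diaph1-203, with 35.6, 65.1 and 32.5%. Replicate 2 stood apart in both in the first table, with less of Arpc3-202 and more of Diaph1-203. These shares depended on the method too. Arpc3-202 averaged 54.8% in the first table and 20.7 ± 9.21% in the second, and Diaph1-203 44.4% and 17.2 ± 20.6% (SD, n = 3). The methods differed for Capzb-204, at 83.1% in the first table and 24.1% in the second, and for Coro1a-201, at 53.7% and 7.82%. Both tables gave Coro1b-211 alike, at 49.8% and 50.1%. Counts of members in the second table were 1.19 (Myl6, Actg1) to 1.99 (Aif1) times those of the first. Over all annotated genes the second table held 1.37, 1.75 and 1.46 times the counts of the first in replicates 1 to 3. TPM of Actb in the second table was 421, 718 and 75.6 in replicates 1 to 3, an order and a range unlike those of the first table. Every member was lowest in replicate 3 by these TPM, for example Rhoa at 19.6, 42.3 and 5.94 and Myh9 at 46.2, 49.4 and 11.7. The low value in replicate 3 was thus not particular to Actb.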
